A study of Mus musculus with 12 samples.

Results

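The 39 genes described here are interferon-stimulated antiviral genes, named as a list and read from the RNA-seq counts of mouse mandibular lymph nodes. Each symbol was matched to the Ensembl gene ID with the most reads, which found all 39 members among 56941 gene IDs, and all 39 passed the filter on low counts with 20034 genes in all. They comprise transcription factors of the interferon response (Stat2, Irf9, Irf7), the ISG15 system (Isg15, Usp18, Herc6) and nucleic acid sensors (Ifih1, Ddx58, Dhx58, Zbp1). A further 11 are effectors that act on RNA (4 Ifit genes, 5 Oas and Oasl genes, Eif2ak2, Isg20). Others are GTPases and nucleotide enzymes (Mx1, Mx2, Rsad2, Cmpk2) and membrane proteins (Bst2, Ifitm3, Rtp4, Ifi27l2a). The rest are genes of ADP-ribosylation (Parp9, Parp12, Parp14, Dtx3l) and 6 others (Ifi44, Trim30a, Ifi35, Phf11d, Samd9l, Lgals3bp).

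The study examined how loss of miR-451a, a microRNA abundant in red blood cells and circulating vesicles, bears on delayed-type hypersensitivity to the hapten 1-fluoro-2,4-dinitrobenzene (DNFB). Every mouse had 100 μl of 0.5% DNFB painted on shaved abdominal skin on days 0, 1 and 2, so the controls for challenge were themselves sensitized and no naive node was included. KO_DTH nodes came from miR-451a knockout mice whose left ear received 20 μl of 1% DNFB on day 9, and were taken on day 10, 24 hours later; WT_DTH nodes came from wild-type mice treated the same way. KO_se nodes came from miR-451a knockout mice and WT_se nodes from wild-type mice that were sensitized, not challenged, and taken on day 9. Challenge and harvest day therefore cannot be told apart. Each group had 3 libraries of total RNA. Strain, age and sex are not given in the sources used here, nor whether the 3 libraries of a group came from separate animals; the spread behind each p-value is that among these libraries and may be technical. The microRNA itself was not analysed here, so the genotype labels were not checked against it.

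Type I and type III interferons signal through paired receptors and the kinases JAK1 and TYK2 to the complex ISGF3, which includes STAT2 and IRF9 and binds interferon-stimulated response elements in promoters. Interferon-gamma signals through JAK1 and JAK2 to a different promoter element, the gamma-activated sequence, and many genes answer to both. The products described here sense viral nucleic acid, block translation or degrade RNA, trap or exclude virions, or tune the pathway; in lymph nodes they are made by many cell types, and in bulk RNA a change in the number of expressing cells and a change in RNA per cell cannot be told apart.

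Promoter sequences were read from RefSeq's GRCm38.p6 windows, an older build than the GRCm39 of the counts, and cover 250 bases before to 50 after each annotated start. A window was found for 29 of the 39 members. The core letters of the interferon-stimulated response element, GAAANN followed directly by GAAA, read on either strand, were found in windows of 14 of the 29 members (48.3%) and of 1079 of 27025 genes (3.99%). The letters TTCNNNGAA, the core of the gamma-activated sequence, were found in 7 of the 29 (24.1%) and in 2582 of the 27025 (9.55%), and the 2 motifs overlapped in Ifitm3 and in Bst2. Sequences of the 250 bases before the start follow, 5′ to 3′ on the gene's strand, for Isg15, which held 3 overlapping matches, for the neighbouring Ifit1, Ifit3 and Ifit3b with 2 each, for Rsad2 with 1, and for Samd9l with none; capitals mark these 10 letters or their reverse complement.
Isg15: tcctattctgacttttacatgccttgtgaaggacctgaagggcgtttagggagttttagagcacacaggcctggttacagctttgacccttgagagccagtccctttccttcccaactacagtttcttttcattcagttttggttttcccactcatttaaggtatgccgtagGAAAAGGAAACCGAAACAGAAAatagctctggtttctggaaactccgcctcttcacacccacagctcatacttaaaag
Ifit1: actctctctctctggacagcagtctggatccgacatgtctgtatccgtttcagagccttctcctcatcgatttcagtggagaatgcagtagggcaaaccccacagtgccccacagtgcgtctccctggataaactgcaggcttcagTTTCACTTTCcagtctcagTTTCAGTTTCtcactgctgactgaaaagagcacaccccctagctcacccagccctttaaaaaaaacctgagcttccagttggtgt
Ifit3: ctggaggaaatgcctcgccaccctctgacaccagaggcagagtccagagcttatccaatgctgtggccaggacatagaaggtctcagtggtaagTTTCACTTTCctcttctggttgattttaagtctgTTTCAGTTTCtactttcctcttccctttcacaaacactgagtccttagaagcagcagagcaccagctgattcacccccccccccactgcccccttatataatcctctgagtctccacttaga
Ifit3b: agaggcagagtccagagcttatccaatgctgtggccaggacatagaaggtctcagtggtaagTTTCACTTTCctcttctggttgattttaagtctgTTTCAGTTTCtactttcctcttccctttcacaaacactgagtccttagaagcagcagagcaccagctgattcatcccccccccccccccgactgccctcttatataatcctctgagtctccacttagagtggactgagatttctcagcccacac
Rsad2: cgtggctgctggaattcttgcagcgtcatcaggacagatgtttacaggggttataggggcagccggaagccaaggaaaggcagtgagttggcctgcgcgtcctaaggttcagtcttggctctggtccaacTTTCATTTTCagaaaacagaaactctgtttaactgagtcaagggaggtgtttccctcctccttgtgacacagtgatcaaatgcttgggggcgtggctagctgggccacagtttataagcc
Samd9l: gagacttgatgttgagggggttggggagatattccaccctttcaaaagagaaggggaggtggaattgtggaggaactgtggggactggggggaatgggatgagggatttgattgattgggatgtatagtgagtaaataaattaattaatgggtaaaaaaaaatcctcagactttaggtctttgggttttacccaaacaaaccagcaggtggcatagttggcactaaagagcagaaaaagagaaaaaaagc

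On GRCm38.p6 these stretches lie at Isg15 chr4:156200819-156201068 (minus strand), Ifit1 chr19:34640639-34640888 (plus strand), Ifit3 chr19:34583279-34583528 (plus strand), Ifit3b chr19:34607707-34607956 (plus strand), Rsad2 chr12:26456453-26456702 (minus strand), Samd9l chr6:3399572-3399821 (minus strand). In the 3 Ifit promoters shown, the same pair of 10-letter matches, TTTCACTTTC and TTTCAGTTTC, appeared in the same order, with first bases 156 and 122 bases before the start in Ifit3, 188 and 154 in Ifit3b, and 104 and 85 in Ifit1. Reads of closely similar gene copies can be split between them in counting, so the separate values of Ifit3 and Ifit3b are uncertain, as are those within the Oas and Mx families. The 14 members with a match had a median log2 fold change with challenge of 2.86 in the knockout and 2.32 in the wild type, and the 15 with a window and no match had 2.06 in the knockout and 1.61 in the wild type; this is a description of letters in a window, and ranges overlapped (1.17 to 3.71 against 0.41 to 3.62 in the knockout).

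Libraries held 36.9 to 58.4 M estimated counts, and levels are given as CPM, counts scaled to a common library size after TMM normalization. B and T cell markers were detected in every library (summed 1152 to 2312 CPM for 6 B cell genes and 912 to 1926 CPM for 8 T cell genes). Of 6 node stroma markers, Ccl19 had 0 counts in WT_DTH replicate 3 and Pdpn in KO_se replicate 1 and WT_se replicate 1, and the other 4 were counted throughout. An 18-gene list of salivary gland markers, a tissue beside these nodes, took 4.17 to 9.57% of counts in KO_DTH libraries, 2.08 to 3.38% in WT_DTH, 2.85 to 6.87% in KO_se and 7.05 to 14.5% in WT_se, with 1 of the 18 at 0 throughout WT_DTH. The WT_DTH and WT_se ranges do not overlap, so this share moved with challenge in the wild type. Genes were tested with edgeR's quasi-likelihood test, with p-values adjusted by Benjamini-Hochberg over the 20034 genes and a threshold of 0.05.

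Ear challenge was accompanied by higher levels of nearly the whole set in the knockout and of the whole set in the wild type. In the knockout 38 of the 39 genes were higher in KO_DTH than in KO_se and 0 lower, against 5.81% of all tested genes called higher and 3.86% called lower. In the wild type 39 of 39 were higher in WT_DTH than in WT_se, against 9.77% of all tested genes called higher and 8.97% called lower. The median log2 fold change of the members was 2.39 in the knockout (range 0.41 to 3.82) and 1.81 in the wild type (range 0.52 to 3.18), where the median of all tested genes was 0.00 in the knockout and -0.01 in the wild type. In both genotypes every challenged library lay above every sensitized library for 39 of 39 members, a separation seen in 15.1% of all tested genes in the knockout and 17.6% in the wild type. Summed over the 39 members, levels were 3574 to 5182 CPM in KO_DTH libraries against 1007 to 1355 CPM in KO_se libraries, and 4028 to 4260 CPM in WT_DTH libraries against 971 to 1615 CPM in WT_se libraries.

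**Figure D1:**
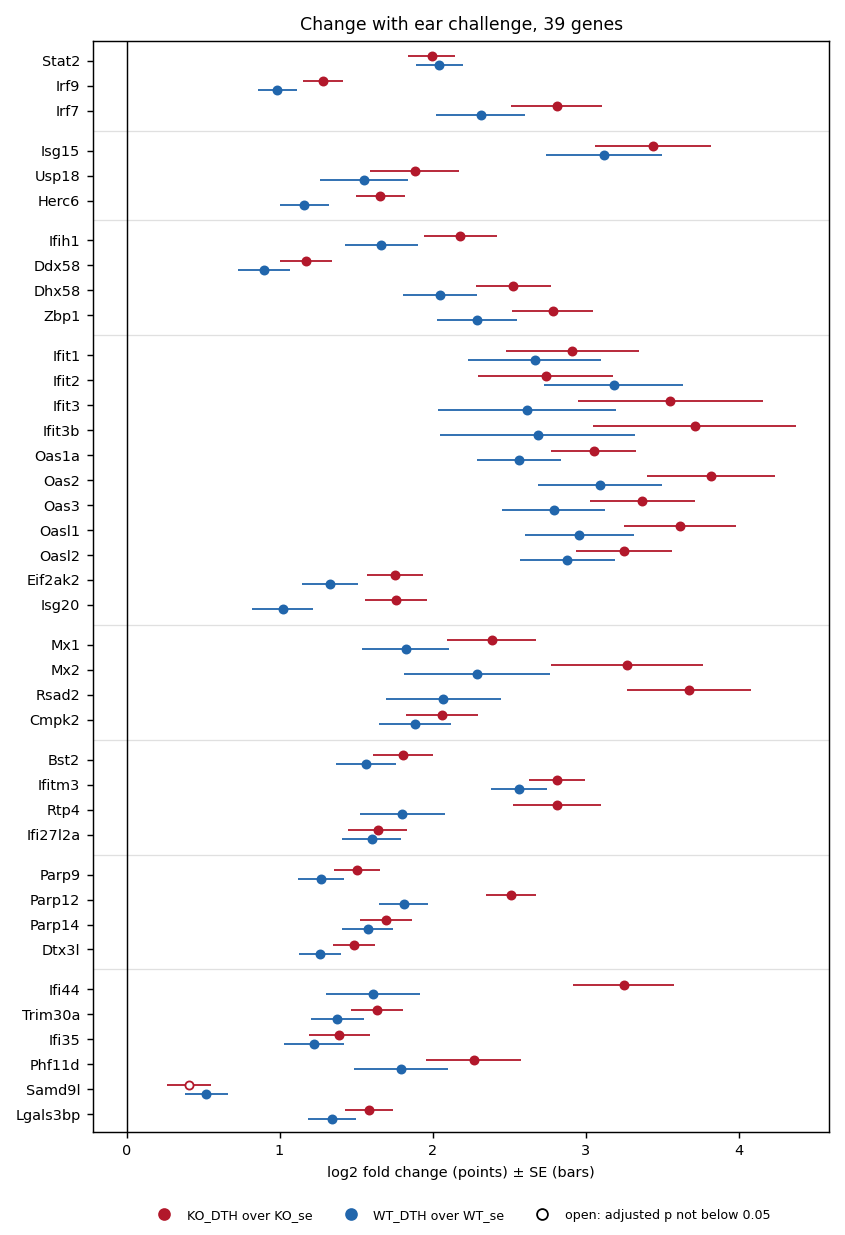
Log2 fold change with ear challenge (horizontal axis, points with SE bars) for the 39 genes grouped by role from top to bottom, knockout (KO_DTH over KO_se) above wild type (WT_DTH over WT_se) in each row, 3 libraries a group. Every point lies right of 0, from 0.41 to 3.82, and only Samd9l in the knockout is open, having missed an adjusted p of 0.05.

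**Figure D2:**
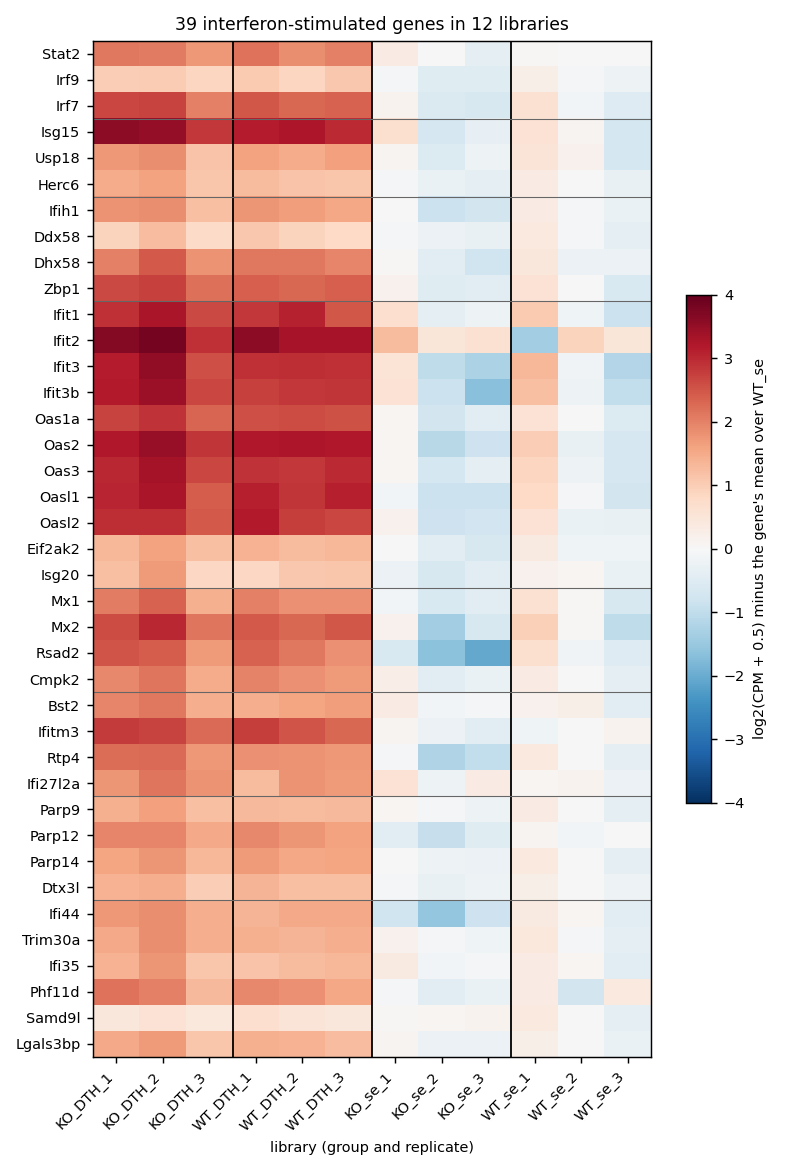
Level of each gene in each of the 12 libraries, as log2(CPM + 0.5) minus that gene's mean over the 3 WT_se libraries (colour scale from -4 to 4). The 6 challenged libraries at left are above the 6 sensitized ones at right for all 39 genes, and the sensitized libraries differ among themselves, KO_se replicate 1 and WT_se replicate 1 being the highest of their groups in most rows.

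The 3 transcription factors rose in both genotypes. Stat2, the STAT found in ISGF3, measured 151, 148 and 117 CPM in KO_DTH libraries, against 43.0, 34.5 and 27.1 CPM in KO_se libraries. In the wild type it measured 158, 127 and 142 CPM in WT_DTH libraries, against 35.4, 33.9 and 34.1 CPM in WT_se libraries. The challenged and sensitized libraries were far apart with no overlap in either genotype, and the log2 fold changes were 1.99 ± 0.15 in the knockout and 2.04 ± 0.15 in the wild type (± SE, adjusted p = 2.8e-05 in the knockout and 1.6e-05 in the wild type).

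Irf9, the DNA-binding subunit of ISGF3, measured 145, 146 and 132 CPM in KO_DTH libraries, against 69.5, 52.1 and 52.1 CPM in KO_se libraries. In the wild type it was 151, 131 and 152 CPM in WT_DTH libraries, against 85.4, 70.0 and 63.5 CPM in WT_se libraries. Its groups did not overlap, yet its change was among the smaller ones, at 1.28 ± 0.13 in the knockout and 0.99 ± 0.13 in the wild type (adjusted p = 7.9e-05 in the knockout and 0.00033 in the wild type). Irf7, the factor that drives later interferon-alpha transcription, was the most responsive of the 3 transcription factors. Irf7 had 446, 456 and 284 CPM in KO_DTH libraries, against 77.7, 47.1 and 44.4 CPM in KO_se libraries. Its wild-type levels were 392, 348 and 360.4 CPM in WT_DTH libraries, against 108, 64.6 and 48.8 CPM in WT_se libraries. Its lowest KO_DTH library, replicate 3, was still well above the highest KO_se library, and the log2 fold changes were 2.81 ± 0.30 in the knockout and 2.31 ± 0.29 in the wild type (adjusted p = 9.5e-05 in the knockout and 0.00024 in the wild type).

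Isg15, a ubiquitin-like protein attached to other proteins, rose strongly in both genotypes. Its levels were 90.8, 86.3 and 52.8 CPM in KO_DTH libraries, against 11.3, 4.24 and 5.49 CPM in KO_se libraries. Wild-type levels were 65.8, 70.7 and 60.0 CPM in WT_DTH libraries, against 10.8, 7.66 and 4.19 CPM in WT_se libraries. The groups were separate in both genotypes, with log2 fold changes of 3.44 ± 0.38 in the knockout and 3.12 ± 0.38 in the wild type (adjusted p = 0.00013 in the knockout and 0.00019 in the wild type). Usp18, the protease that removes ISG15 and restrains the type I receptor, measured 24.9, 27.6 and 16.3 CPM in KO_DTH libraries, against 7.72, 4.78 and 6.13 CPM in KO_se libraries. In wild-type nodes Usp18 measured 22.9, 20.7 and 23.2 CPM in WT_DTH libraries, against 10.4, 8.17 and 4.24 CPM in WT_se libraries. Its groups also did not overlap, with log2 fold changes of 1.88 ± 0.29 in the knockout and 1.55 ± 0.29 in the wild type (adjusted p = 0.00146 in the knockout and 0.00290 in the wild type). Herc6, the ligase that attaches ISG15 in mouse, changed by 1.66 ± 0.16 in the knockout and 1.16 ± 0.16 in the wild type.

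All 4 sensors rose in both genotypes, with Zbp1, a sensor of Z-form nucleic acid, moving most at 2.78 ± 0.27 in the knockout and 2.29 ± 0.26 in the wild type on the log2 scale. Ifih1, which encodes MDA5, changed by 2.18 ± 0.24 in the knockout and 1.67 ± 0.24 in the wild type, and Dhx58, which encodes the related regulator LGP2, by 2.53 ± 0.25 in the knockout and 2.05 ± 0.24 in the wild type. Ddx58, which encodes RIG-I, had the second smallest fold change of the members in both genotypes. It measured 130.4, 165 and 120.1 CPM in KO_DTH libraries, against 68.0, 59.1 and 57.0 CPM in KO_se libraries. Wild-type libraries had 149, 129 and 122 CPM in WT_DTH libraries, against 92.1, 68.1 and 54.8 CPM in WT_se libraries. Even so the groups did not overlap, and the log2 fold changes were 1.17 ± 0.17 in the knockout and 0.90 ± 0.17 in the wild type (adjusted p = 0.00099 in the knockout and 0.00316 in the wild type).

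The 11 effectors that act on RNA had the largest changes of the 8 roles, with a median log2 fold change of 3.25 in the knockout and 2.69 in the wild type. IFIT proteins bind viral RNA ends or hinder translation. Ifit1 measured 58.9, 74.7 and 48.1 CPM in KO_DTH libraries, against 12.1, 5.62 and 6.28 CPM in KO_se libraries. In the wild type Ifit1 was 55.2, 65.7 and 43.7 CPM in WT_DTH libraries, against 15.8, 6.43 and 3.81 CPM in WT_se libraries. These groups were separate, at 2.91 ± 0.44 in the knockout and 2.67 ± 0.43 in the wild type (adjusted p = 0.00121 in the knockout and 0.00132 in the wild type). Ifit3 measured 124, 167 and 84.7 CPM in KO_DTH libraries, against 20.0, 6.48 and 5.36 CPM in KO_se libraries. Wild-type Ifit3 was 106, 109.6 and 107 CPM in WT_DTH libraries, against 34.7, 12.4 and 5.74 CPM in WT_se libraries. The WT_DTH libraries were nearly equal while the WT_se libraries spread widely, and the log2 fold changes were 3.55 ± 0.60 in the knockout and 2.62 ± 0.58 in the wild type (adjusted p = 0.00288 in the knockout and 0.00794 in the wild type). Ifit3b had 30.6, 36.8 and 21.7 CPM in KO_DTH libraries, against 4.68, 1.42 and 0.598 CPM in KO_se libraries. Its wild-type values were 22.7, 24.4 and 24.5 CPM in WT_DTH libraries, against 7.46, 2.49 and 1.26 CPM in WT_se libraries. With 3.71 ± 0.66 in the knockout and 2.69 ± 0.64 in the wild type, it had the second largest change of the set in the knockout and one of the largest standard errors (adjusted p = 0.00399 in the knockout and 0.0110 in the wild type).

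Ifit2 had the largest fold change of the 39 in the wild type. It measured 94.8, 78.4 and 78.2 CPM in WT_DTH libraries, against 2.56, 14.4 and 10.6 CPM in WT_se libraries. Replicate 1 of WT_se, the highest of its group for 34 of 39 members, was the lowest of its group for Ifit2, and without it the log2 fold change was 2.75. In the knockout Ifit2 measured 101, 113 and 60.5 CPM in KO_DTH libraries, against 18.7, 10.6 and 11.7 CPM in KO_se libraries. The knockout groups were separate too, and the log2 fold changes were 2.74 ± 0.44 in the knockout and 3.18 ± 0.45 in the wild type (adjusted p = 0.00205 in the knockout and 0.00059 in the wild type). The OAS enzymes make 2-5A, which activates the nuclease RNase L. Oas2, with the largest fold change in the knockout, measured 104, 127 and 82.6 CPM in KO_DTH libraries, against 11.5, 4.80 and 5.88 CPM in KO_se libraries. Wild-type nodes had 105, 108 and 105 CPM in WT_DTH libraries, against 21.9, 8.86 and 6.62 CPM in WT_se libraries. No library crossed groups, at 3.82 ± 0.42 in the knockout and 3.10 ± 0.40 in the wild type (adjusted p = 0.00013 in the knockout and 0.00031 in the wild type). The other enzymes of this family and the related OASL proteins followed, with log2 fold changes in the knockout of 3.05 for Oas1a, 3.37 for Oas3, 3.62 for Oasl1 and 3.25 for Oasl2, all called in both genotypes. Eif2ak2, the kinase PKR that halts translation on double-stranded RNA, changed by 1.76 ± 0.19 in the knockout and 1.33 ± 0.18 in the wild type, and the exonuclease gene Isg20 by 1.76 ± 0.20 in the knockout and 1.02 ± 0.20 in the wild type.

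Mx1 encodes a dynamin-like GTPase that blocks influenza virus in mice with an intact gene, which many laboratory strains lack. It measured 92.2, 116 and 60.6 CPM in KO_DTH libraries, against 20.6, 14.3 and 16.4 CPM in KO_se libraries. Its wild-type levels were 91.5, 79.2 and 79.8 CPM in WT_DTH libraries, against 34.1, 22.8 and 14.0 CPM in WT_se libraries. Challenged and sensitized libraries were separate, at 2.39 ± 0.29 in the knockout and 1.82 ± 0.28 in the wild type (adjusted p = 0.00026 in the knockout and 0.00101 in the wild type). Mx2 changed by 3.27 ± 0.50 in the knockout and 2.29 ± 0.48 in the wild type. Rsad2 encodes viperin, which makes a chain-terminating nucleotide, and Cmpk2, its neighbour on chromosome 12, a nucleotide kinase. Rsad2 measured 84.6, 79.1 and 48.2 CPM in KO_DTH libraries, against 9.12, 4.24 and 3.12 CPM in KO_se libraries. In wild-type nodes it measured 75.9, 62.9 and 52.4 CPM in WT_DTH libraries, against 22.8, 13.0 and 9.81 CPM in WT_se libraries. The KO_se libraries were the lowest of the 4 groups for Rsad2, and its log2 fold changes were 3.68 ± 0.40 in the knockout and 2.07 ± 0.38 in the wild type (adjusted p = 0.00013 in the knockout and 0.00259 in the wild type). Cmpk2 changed by 2.06 ± 0.24 in the knockout and 1.88 ± 0.24 in the wild type.

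**Figure D3:**
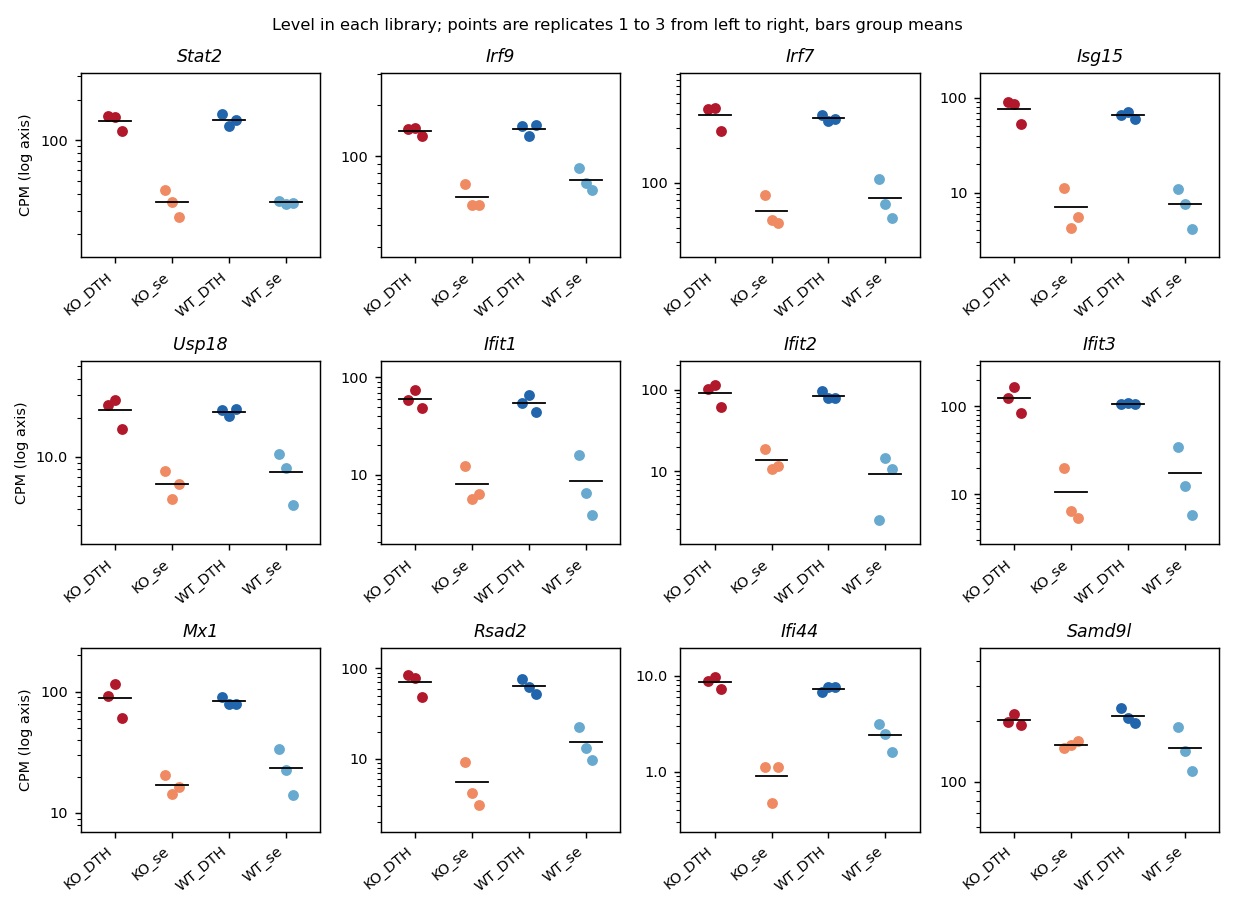
Level in every library for 12 of the genes (CPM, log axis; points are replicates 1 to 3 from left to right within a group and bars are group means). Challenged libraries lie above sensitized ones in both genotypes, replicate 3 is the lowest point of KO_DTH in each panel, and replicate 1 of WT_se is the lowest of its group for Ifit2 and not for the other 11 genes.

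Among membrane proteins, Ifitm3, which keeps virus from fusing in endosomes, and Rtp4, a chaperone of receptor trafficking with antiviral activity, moved most. Ifitm3 changed by 2.81 ± 0.18 in the knockout and 2.57 ± 0.18 in the wild type. Rtp4 changed by 2.81 ± 0.29 in the knockout and 1.80 ± 0.28 in the wild type, and Bst2, the tetherin that holds budding virions, by 1.81 ± 0.20 in the knockout and 1.56 ± 0.19 in the wild type. Ifi27l2a changed by 1.64 ± 0.19 in the knockout and 1.60 ± 0.19 in the wild type. Of the ADP-ribosylation genes, Parp12 moved most, at 2.51 ± 0.16 in the knockout and 1.81 ± 0.16 in the wild type. Log2 fold changes in the knockout were 1.70 for Parp14, 1.51 for Parp9 and 1.49 for Dtx3l, the last 2 of which encode partners in a complex, and all were called in both genotypes.

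Ifi44 and Phf11d led the remaining genes. Ifi44 changed by 3.25 ± 0.33 in the knockout and 1.61 ± 0.31 in the wild type on the log2 scale, and Phf11d by 2.27 ± 0.31 in the knockout and 1.79 ± 0.31 in the wild type. In the knockout the log2 fold changes were 1.64 for Trim30a, 1.39 for Ifi35 and 1.58 for Lgals3bp, and these 3 were called in both genotypes. Phf11d belongs to a family of near-identical copies, so its counts are uncertain. Samd9l, a restriction factor of poxviruses, had the smallest change. It measured 199, 218 and 193 CPM in KO_DTH libraries, against 148, 152 and 159.6 CPM in KO_se libraries. In the wild type it measured 231, 208 and 196 CPM in WT_DTH libraries, against 188, 142 and 113 CPM in WT_se libraries. The groups did not overlap in either genotype, but they lay close, and the log2 fold changes were 0.41 ± 0.14 in the knockout and 0.52 ± 0.14 in the wild type (adjusted p = 0.0930 in the knockout and 0.0227 in the wild type). The wild-type call was lost without WT_se replicate 2 (adjusted p = 0.0713), WT_se replicate 3 (0.0622) or WT_DTH replicate 1 (0.0589). The knockout value passed without WT_se replicate 1 (0.0254) or WT_se replicate 3 (0.0304), libraries of neither knockout group. They enter it only through the shared filter, scaling, estimate of spread and adjustment.

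Levels were compared between genes per kilobase of annotated exons. In KO_DTH nodes Ifi27l2a was the most abundant at 734 ± 106 CPM per kb (SD, n = 3), followed by Ifitm3 (192 ± 37.3), Bst2 (164 ± 38.0), Irf7 (105 ± 25.5) and Isg15 (101 ± 27.4), of which Ifitm3 and Bst2, and Irf7 and Isg15, lie within each other's SD. The same 5 genes led in WT_DTH nodes, at 597 ± 108, 183 ± 30.4, 134 ± 10.002, 97.1 ± 6.01 and 86.6 ± 7.10 CPM per kb. In sensitized nodes Ifi27l2a and Bst2 led, at 235 ± 60.2 and 46.7 ± 8.14 in KO_se and 196 ± 26.1 and 45.3 ± 10.4 in WT_se, while Isg15 ranked 12 and 14 of 39. Ifi44 ranked last in every group, at 1.41 ± 0.207 CPM per kb in KO_DTH, 1.20 ± 0.0866 in WT_DTH, 0.147 ± 0.0608 in KO_se and 0.393 ± 0.126 in WT_se.

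Transcripts of the interferons other than Ifng were nearly absent from the counts. Of 18 interferon genes listed, only Ifng passed the filter on low counts, and it rose by 1.44 ± 0.32 in the knockout and 1.74 ± 0.33 in the wild type on the log2 scale (adjusted p = 0.0148 in the knockout and 0.00312 in the wild type). Its level was 4.30, 5.93 and 4.19 CPM in KO_DTH against 2.13, 1.40 and 1.80 CPM in KO_se, and 6.98, 3.73 and 7.73 CPM in WT_DTH against 1.18, 2.22 and 2.10 CPM in WT_se. Each challenged library exceeded each sensitized one, although the knockout call was lost without KO_se replicate 2 (adjusted p = 0.0706) or KO_DTH replicate 2 (0.0574). The other 17 were Ifnb1, Ifnab, Ifne, Ifnk, Ifnz, Ifnl2, Ifnl3 and 10 interferon-alpha genes (Ifna1, Ifna2, Ifna4, Ifna5, Ifna6, Ifna9, Ifna11, Ifna12, Ifna13 and Ifna14). They summed to 1 to 6 counts in KO_DTH libraries, 0 to 21 in WT_DTH, 3 to 27 in KO_se and 2 to 15 in WT_se; 11 of them were at 0 in every library.

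Of 9 receptor and kinase genes (Ifnar1, Ifnar2, Ifngr1, Ifngr2, Ifnlr1, Il10rb, Jak1, Jak2 and Tyk2), 0 were called with challenge in the knockout, by edgeR at an adjusted or at an unadjusted p of 0.05. In the wild type Jak2, the kinase of the interferon-gamma receptor, rose by 0.41 ± 0.10 (adjusted p = 0.0105), and Ifngr2, a chain of that receptor, fell, at -0.30 ± 0.07 (adjusted p = 0.0119); the Ifngr2 call was lost without WT_se replicate 1 or any of the 3 WT_DTH libraries (adjusted p from 0.0504 to 0.0857). Of 6 negative regulators, Socs1 and Socs3, which block JAK kinases, rose in the knockout (0.60 ± 0.13 and 0.52 ± 0.07), and Socs1 and the phosphatase gene Ptpn6 rose in the wild type (0.66 ± 0.13 and 0.36 ± 0.09). Of 14 genes of nucleic acid sensing upstream of interferon, 7 rose in the knockout and 0 fell, among them Tlr7 (1.20 ± 0.17), a receptor for single-stranded RNA, and the adaptor Myd88 (0.54 ± 0.08); 8 rose and 2 fell in the wild type, with Tlr7 at 1.52 ± 0.17 and Irf5 at 1.07 ± 0.11.

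Genes listed as answering mainly to interferon-gamma moved as well: 11 of 14 rose in the knockout and 12 of 14 in the wild type, with 0 lower in both. Of all tested genes, 5.81% were called higher in the knockout and 9.77% in the wild type. The median log2 fold changes of the 14 were 1.64 in the knockout and 1.34 in the wild type. Many genes answer to both kinds of interferon, so this list does not separate the responses. It shares Socs1 with the negative regulators. Gbp2, a guanylate-binding GTPase, changed by 2.33 ± 0.17 in the knockout and 2.19 ± 0.17 in the wild type, Irgm1, an immunity-related GTPase, by 2.14 ± 0.13 in the knockout and 1.46 ± 0.13 in the wild type, and the chemokine gene Cxcl9 by 3.26 ± 0.34 in the wild type. Of 43 tested among 44 further interferon-stimulated genes, 34 rose in the knockout and 0 fell, and 35 rose and 2 fell in the wild type, with medians of 1.38 in the knockout and 1.22 in the wild type. Oas1g, a further OAS family gene, rose by 3.78 ± 0.31 in the knockout and 3.50 ± 0.31 in the wild type, its counts uncertain beside its near copies, and the chemokine gene Cxcl10 by 2.74 ± 0.20 in the wild type.

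Markers of other cells moved with challenge beside these genes. Of 9 monocyte markers, 6 rose in the knockout and 8 in the wild type, none lower. Their sum was 1196 to 1498 CPM in KO_DTH against 613 to 827 CPM in KO_se, and 1107 to 1906 CPM in WT_DTH against 461 to 582 CPM in WT_se, with 0 markers at 0 in any group. With a monocyte score as a covariate 0 of the 39 genes passed in either genotype, by edgeR at an adjusted p of 0.05, though 37 in the knockout and 15 in the wild type had an unadjusted p below 0.05 (all tested genes in that fit, 10.9% in the knockout and 8.58% in the wild type); the member medians were 2.31 in the knockout and 1.55 in the wild type. With a salivary score as a covariate 38 were higher in the knockout and 14 in the wild type (all tested genes in that fit, 4.42% in the knockout and 1.17% in the wild type), with medians of 2.26 in the knockout and 1.87 in the wild type. Of 7 markers of plasmacytoid dendritic cells, a main source of interferon-alpha, Siglech and Ccr9 fell in both genotypes (-2.31 ± 0.24 and -0.95 ± 0.18 in the knockout, -1.41 ± 0.23 and -1.03 ± 0.18 in the wild type), and Tcf4 rose in the wild type (0.66 ± 0.13). T cell markers fell, 2 of 8 in the knockout and 8 of 8 in the wild type. Of 18 salivary gland markers 2 rose and 0 fell in the knockout, and 0 rose and 16 fell in the wild type. No neutrophil or B cell marker was called in the knockout, and 4 of 7 neutrophil and 5 of 6 B cell markers rose in the wild type. Of 4 sinus macrophage markers tested, 1 rose and 2 fell in each genotype. The sinus macrophage list shares Siglec1 with the further interferon-stimulated genes, so the counts of these lists are not independent. Of 8 erythroid markers tested, 0 were called in the knockout and 5 fell in the wild type. Mitochondrially encoded genes took 5.75 to 16.0% of counts in KO_DTH against 12.2 to 16.3% in KO_se, and 4.53 to 6.02% in WT_DTH against 14.0 to 19.4% in WT_se. The part of these markers in the result was not tested beyond the 2 covariate fits. The monocyte score was higher in every challenged than in every sensitized library. Its part in the result and that of challenge therefore cannot be told apart by this covariate. In the wild type the salivary score was lower in every WT_DTH than in every WT_se library, so the same limit holds for it there.

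In sensitized nodes, before any challenge, 3 of the 39 genes were lower in KO_se than in WT_se and 0 were higher, against 1.4% of all tested genes called lower and 3.76% called higher. At an unadjusted p below 0.05 there were 7 members, and 22% of all tested genes. The median log2 fold change of the 39 was -0.33 and 33 had a negative one; over all tested genes the median was -0.01 and 49.2% were positive. Ifi44, a cytoplasmic protein of the interferon response, measured 1.13, 0.473 and 1.11 CPM in KO_se libraries, against 3.14, 2.49 and 1.60 CPM in WT_se libraries. Parp12, which restricts RNA virus translation, measured 7.38, 5.16 and 7.20 CPM in KO_se libraries, against 11.1, 9.48 and 10.2 CPM in WT_se libraries. Rsad2 measured 9.12, 4.24 and 3.12 CPM in KO_se, against 22.8, 13.0 and 9.81 CPM in WT_se. For these 3 genes every KO_se library lay below every WT_se library, which held for 12.9% of all tested genes and for none of the other 36 members. The log2 fold changes were -1.40 ± 0.32 for Ifi44 (adjusted p = 0.0262), -0.64 ± 0.16 for Parp12 (0.0385) and -1.46 ± 0.38 for Rsad2 (0.0467). Ifi44 was counted thinly, with 63, 22 and 52 counts in KO_se, against 109, 93 and 67 counts in WT_se.

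These calls depended on single libraries. Adjusted p rose for Ifi44 to 0.0963 without WT_se replicate 1, 0.0595 without WT_se replicate 2 and 0.0776 without KO_se replicate 2. Parp12 lost its call without any 1 of the 6 sensitized libraries (adjusted p from 0.0564 without KO_se replicate 3 to 0.139 without KO_se replicate 2) and without WT_DTH replicate 2 (0.0594). Rsad2 lost its call without 9 of the 12 libraries, with adjusted p from 0.054 without WT_DTH replicate 1 to 0.164 without KO_se replicate 2; it passed without WT_se replicate 3 (0.0439), KO_se replicate 1 (0.0153) or KO_DTH replicate 3 (0.0427), and its log2 fold change ran from -2.04 without KO_se replicate 1 to -1.04 without WT_se replicate 1. Called members were 0 without WT_se replicate 1, WT_se replicate 2 or KO_se replicate 2, 1 without WT_DTH replicate 2 or KO_se replicate 3, and 2 or 3 otherwise. Without WT_se replicate 1 the member median was -0.01, with 21 of 39 negative. The salivary gland share was 2.85 to 6.87% in KO_se and 7.05 to 14.5% in WT_se, and with the salivary score as a covariate the adjusted p was 0.193 for Ifi44, 0.416 for Parp12 and 0.197 for Rsad2. With the monocyte score it was 0.0558 for Ifi44, 0.0507 for Parp12 and 0.0319 for Rsad2. Cell markers differed as well, with summed levels of 204 to 322 CPM in KO_se against 52.9 to 106 CPM in WT_se for 7 neutrophil genes (2 called higher, 0 lower), 1642 to 2312 CPM in KO_se against 1152 to 1486 CPM in WT_se for 6 B cell genes (2 higher, 0 lower), and 613 to 827 CPM in KO_se against 461 to 582 CPM in WT_se for 9 monocyte genes (1 higher, 0 lower). The 8 T cell genes summed to 1362 to 1697 CPM in KO_se against 1634 to 1926 CPM in WT_se (0 higher, 2 lower). The 7 plasmacytoid dendritic cell genes summed to 259 to 281 CPM in KO_se against 192 to 228 CPM in WT_se (1 higher, 0 lower). None of these markers was at 0 in a whole group. The part of the neutrophil, B cell, T cell and plasmacytoid dendritic cell genes in these 3 results was not tested. The salivary score was lower, and the monocyte score higher, in every KO_se than in every WT_se library. The part of either score and that of genotype therefore cannot be told apart by these covariates.

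**Figure D4:**
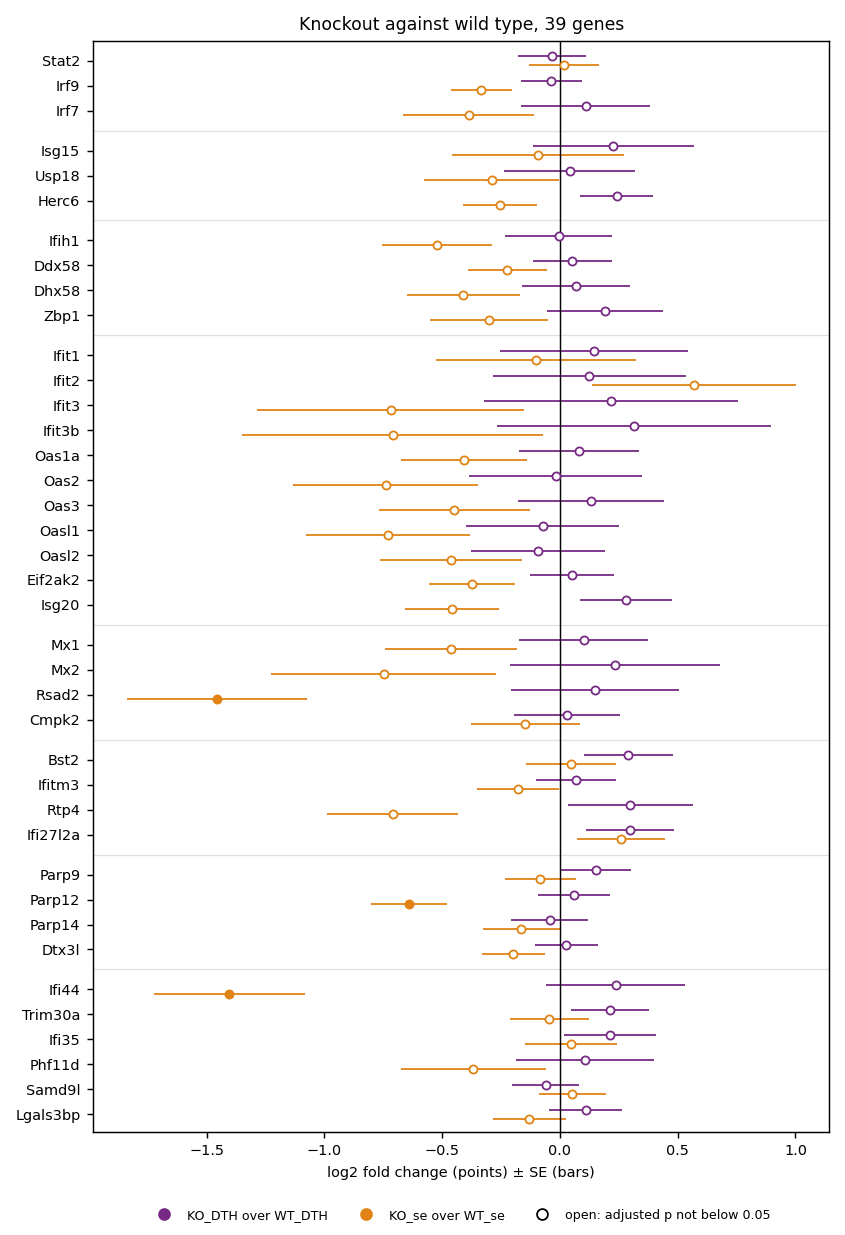
Log2 fold change of knockout over wild type (horizontal axis, points with SE bars) for the 39 genes by role, challenged nodes (KO_DTH over WT_DTH) above sensitized nodes (KO_se over WT_se) in each row, 3 libraries a group. Points for challenged nodes are all open and lie between -0.09 and 0.32, and in sensitized nodes Rsad2, Parp12 and Ifi44 are filled, at -1.46, -0.64 and -1.40.

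After challenge no genotype difference was detected in the set. By edgeR 0 of 39 were called between KO_DTH and WT_DTH, 0 had an unadjusted p below 0.05, and DESeq2's Wald test called 0; of all tested genes 0.514% were called higher, 0.0849% lower, and 14.1% had an unadjusted p below 0.05. Log2 fold changes ran from -0.09 to 0.32 with a median of 0.11, against 0.01 for all tested genes. The 95% interval lay within a 2-fold change in either direction for 34 of the 39, so differences of that size were outside it for those genes. The smallest p-values belonged to Ifi27l2a, Herc6 and Bst2. Ifi27l2a measured 306, 396 and 317 CPM in KO_DTH, against 219.6, 314 and 295 CPM in WT_DTH, a log2 fold change of 0.30 ± 0.19 (95% interval -0.10 to 0.70, adjusted p = 0.529). Herc6 measured 80.6, 87.9 and 61.7 CPM in KO_DTH, against 69.8, 63.4 and 61.7 CPM in WT_DTH (0.24 ± 0.16, interval -0.10 to 0.58, adjusted p = 0.550). Bst2 measured 157, 176 and 109.8 CPM in KO_DTH, against 111, 122 and 129 CPM in WT_DTH (0.29 ± 0.19, interval -0.12 to 0.70, adjusted p = 0.554). In these 3 genes KO_DTH replicate 2 was the highest library and the groups overlapped.

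Single libraries moved the median of that comparison. Without KO_DTH replicate 3 it was 0.24 and 3 members had an unadjusted p below 0.05, none past adjustment. Without KO_DTH replicate 2 the median was -0.03. Leaving out any of the other 10 libraries gave medians between these values. Trim30a, a TRIM protein that restrains inflammatory signalling in mouse, was the only member with every KO_DTH library above every WT_DTH library, seen in 10.1% of all tested genes, and it is named for that reason after its values were seen. It measured 237, 304 and 229.8 CPM in KO_DTH, against 224, 215 and 227 CPM in WT_DTH, a log2 fold change of 0.21 ± 0.17 (adjusted p = 0.645). Outside the 39, the further interferon-stimulated list held 1 gene called between these groups, Xaf1, which encodes a pro-apoptotic partner of XIAP. It measured 176, 198 and 139.9 CPM in KO_DTH, against 46.9, 41.5 and 53.8 CPM in WT_DTH, a log2 fold change of 1.85 ± 0.26 (adjusted p = 0.0120). The call was lost without WT_DTH replicate 1 (0.103) or WT_DTH replicate 2 (0.0650), and with the salivary score (0.205) or the monocyte score (0.0507). The salivary score was higher in every KO_DTH than in every WT_DTH library, so that fit cannot tell it from genotype. The position of Xaf1 relative to the knockout locus was not examined here. Whether its difference comes from loss of the microRNA or from sequence linked to that locus was not tested. In sensitized nodes 1 gene of that list was called higher and 2 lower in KO_se (all tested genes, 3.76% and 1.4%). In the interaction, 0 of its genes were called higher and 1 lower (all tested genes, 1.67% and 0.439%). That 1 was Plac8, so Xaf1 was not called there. Of the 14 upstream sensing genes, 0 were called higher and 1 lower in KO_DTH than in WT_DTH (adjusted p = 0.0361, edgeR). All tested genes gave 0.514% and 0.0849%. In sensitized nodes 0 of the 9 receptor and kinase genes were called higher and 1 lower in KO_se (adjusted p = 0.00415, edgeR). The upstream sensing, negative regulator and interferon-gamma lists each held 1 gene called higher and 1 lower there. For 0 of the 39 was every KO_DTH library below every WT_DTH library, against 8.64% of all tested genes.

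The challenge responses of the 2 genotypes were compared directly by their interaction. With edgeR 0 of 39 were called and 6 had an unadjusted p below 0.05. Of all tested genes 1.67% were called higher, 0.439% lower, and 16% had such an unadjusted p. A larger log2 fold change in the knockout was seen in 36 of 39 members, with a median difference of 0.43 over the 39. Over all tested genes 48.4% had a larger one in the knockout and the median difference was -0.01. The smallest p-values were those of Ifi44 (1.64 ± 0.43, adjusted p = 0.0710), Parp12 (0.70 ± 0.22, 0.127) and Rsad2 (1.60 ± 0.52, 0.137). In challenged nodes Ifi44 measured 8.90, 9.78 and 7.28 CPM in KO_DTH, against 6.73, 7.67 and 7.63 CPM in WT_DTH, and Parp12 measured 41.5, 41.0 and 30.4 CPM in KO_DTH, against 40.4, 35.7 and 32.2 CPM in WT_DTH. The challenged groups overlapped for these 3 genes, while their sensitized groups did not. DESeq2's Wald test called Ifi44 (adjusted p = 0.00584). Without WT_se replicate 1 the median difference was 0.10 and 28 of 39 were positive. Markers moved with the interaction too: 10 of 18 salivary gland and 5 of 37 mitochondrially encoded genes were called higher and 0 lower, 1 of 8 T cell genes was called higher, and 2 of 6 B cell genes were called lower. All 7 neutrophil genes had a negative interaction, 0 of them called and 6 with an unadjusted p below 0.05. With the salivary score as a covariate the member median was 0.53, 34 of 39 were positive and 0 had an unadjusted p below 0.05, against 5.16% of all tested genes in that fit. The part of the other markers was not tested in this comparison beyond the monocyte score. With that score the median was 0.54 and 5 members had an unadjusted p below 0.05. The salivary score separated WT_DTH from WT_se libraries, and the monocyte score separated challenged from sensitized libraries. Neither fit can therefore tell its score from challenge in the wild type.

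The set varied together between libraries of a group. KO_DTH replicate 3 was the lowest of its group for 38 of 39 genes and replicate 2 the highest for 32, KO_se replicate 1 was the highest for 38 and WT_se replicate 1 for 34. Over all genes tested, each of these libraries was the lowest or the highest of its group for 32.5 to 33.2%. The median SD of log2 levels was 0.31 for the members against 0.19 for all tested genes in KO_DTH, 0.35 against 0.18 in KO_se and 0.39 against 0.20 in WT_se. In WT_DTH it was 0.10 against 0.18, and no WT_DTH library was the lowest for more than 18 of the 39. Total counts, at 36.9 M, were lowest in KO_DTH replicate 3, and its salivary share of 4.17% was the lowest of its group; 58.4 M, in KO_se replicate 1, was the highest total. Their part in the shared spread was not tested.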

How the data were processed

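The 12 libraries, 3 per group, of mandibular node RNA were made with a directional library kit from total RNA, per the labels. The authors deposited estimated counts per Ensembl gene; per the submitters' processing notes, fastp 0.23.2, HISAT2 2.2.1, StringTie 2.2.1 and GRCm39 were used. The annotation release and strand setting are not given in the sources used here, so overlapping genes may share reads. All deposited counts were whole. Symbols and exon lengths came from GENCODE M21 and matched 51948 IDs.

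Genes were tested with edgeR 4.0.16 in R 4.3.3 (TMM, filterByExpr with a minimum count of 10, quasi-likelihood, 1 mean per group over all 12 libraries, 8 residual degrees of freedom, two-sided). DESeq2 1.42.0 served as an alternative. A fold change's error is the model's SE; other errors are SD. Within groups, libraries differed beyond counting noise (chi-squared per degree of freedom 40.6 to 330). The members and lists were chosen with earlier results of these data known, so no test over the list was made. Values in every library are given for 9 core genes, the 2 largest and 2 smallest changes with each challenge, and the genes called, or else the 3 of smallest p, in each other comparison. Samples were grouped by their labels. In the further interferon-stimulated list, 1 gene is counted and not reported by name. Tables and plots used pandas 2.3.3 and matplotlib 3.10.9 under Python 3.11.15.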

Additional observations from a re-analysis of the deposited data

Results flagged for a closer look

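Plac8, one of the further interferon-stimulated genes and not one of the 39, had a smaller response to challenge in the knockout than in the wild type by the test of that difference itself (interaction -0.742 on the log2 scale, ± 0.17 SE, adjusted p = 0.0438, edgeR). The call was lost with the salivary score (adjusted p = 0.960) or the monocyte score (0.239) as a covariate, without the library richest in salivary transcripts of each group (0.130), and without any 1 of 9 libraries: WT_se replicates 2 (0.0833) and 3 (0.0874), WT_DTH replicates 1 (0.0725), 2 (0.0617) and 3 (0.0749), KO_se replicates 1 (0.0985) and 2 (0.105), and KO_DTH replicates 1 (0.0780) and 2 (0.0750). It rose by 1.51 ± 0.12 in the knockout and 2.25 ± 0.12 in the wild type. Both scores separated WT_DTH from WT_se libraries, so the fits with a score cannot tell it from challenge there.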

How the results depend on the processing

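Alternatives numbered 22, 12 of them leaving out 1 library, and 122 gene results were followed. Another scaling (DESeq2 size factors, or TMM without salivary, erythroid and mitochondrial genes) or a filter at a mean of 50 counts changed no call among the 122. Of the 39 genes, those higher with challenge numbered 38 or 39 in each genotype over the 12 left-out libraries, 0 in both with the monocyte score, and 14 in the wild type with the salivary score. Members lower in KO_se than WT_se, 3 as reported, numbered 1 with no filter, 0 with only the libraries compared, 0 with the salivary score, 1 with the monocyte score, 0 when each group lost its library richest in salivary transcripts, and 0 to 3 over left-out libraries. Jak2 with challenge in the wild type reversed to -0.10 with the monocyte score.

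Counts of all genes called moved more. Challenge in the knockout called 1938, 6 with the monocyte score, 673 without the libraries richest in salivary transcripts, 3038 by DESeq2's Wald test and 1039 to 2035 over left-out libraries. Challenge in the wild type called 3755, 270 with the salivary score, 1 with the monocyte score and 2464 without those richest libraries. Genotype in sensitized nodes called 1035, 213 with the salivary score, 351 without those richest libraries, 2358 by the Wald test and 369 to 1100 over left-out libraries. Genotype in challenged nodes called 120, 64 with no filter, 7 with the salivary and 17 with the monocyte score, 945 by the Wald test and 14 to 471 over left-out libraries. The interaction called 422, 267 with no filter, 0 with the salivary and 1 with the monocyte score, 168 without those richest libraries, 1287 by the Wald test and 0 to 830 over left-out libraries; a fit of only the libraries compared is the same fit there. The Wald test called 1 member in the interaction. The cause of these shifts was not tested.

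Replicate numbers are shared between groups, and what they mean is not given in the sources used here. Same-numbered libraries correlated at -0.10 to 0.14 in their deviations, against -0.08 to 0.12 for other pairs from different groups. Such values cannot tell whether same-numbered libraries share a litter or day. With the replicate block, 1 member, Rsad2, was called in the interaction (adjusted p = 0.0437), and all genes called were 38 for genotype in challenged nodes and 128 for the interaction. Per-length ranks moved by up to 11 places with the longest transcript in place of all exons.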
